A study of Mus musculus with 20 samples.

Results

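Gdnf, the gene for glial cell line-derived neurotrophic factor, and 4 genes for its receptors were followed across 20 bulk RNA-seq libraries of mouse tumors. The 5 members (Gdnf, ENSMUSG00000022144.5; Gfra1, ENSMUSG00000025089.16; Gfra2, ENSMUSG00000022103.11; Ret, ENSMUSG00000030110.14; Ncam1, ENSMUSG00000039542.17) were taken by symbol from a table of 54309 genes. Gdnf was chosen on measured values: its counts were higher with APG-157 + anti-CTLA-4 than in the group that also received anti-CD8. The receptors were chosen because they bind it. Differences of Gdnf that involve either of these groups are therefore given as a description, with no test, and so are those of the receptors between these groups.

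GDNF is a secreted factor that needs a pair of proteins on the receiving cell. A coreceptor tethered to the membrane (GFRα1 for GDNF, GFRα2 for neurturin, GFRα3 for artemin, GFRα4 for persephin) catches the ligand, and the complex then switches on the receptor tyrosine kinase RET and, through it, the MAPK and PI3K routes. GFRα2 can also bind GDNF, more weakly, and the neural cell adhesion molecule NCAM, encoded by Ncam1, can serve as a signaling partner in cells that lack RET. The pathway is best known for the budding kidney and the nerve cells of the gut, and in tumors for the growth of cancer cells along nerves.

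The tumors grew from SCCVII, a mouse squamous carcinoma line that the labels call head and neck cancer cells, injected under the skin of the flank of immunocompetent C3H/HeOuJ mice. All groups carry the same tumor line in the same host strain. The 10 groups of 2 libraries, replicates A and B, comprised control, the single agents APG-157, anti-CTLA-4, anti-PD-1 and anti-CD8, and 5 combinations. The drug was joined to either antibody (APG-157 + anti-PD-1, or else APG-157 + anti-CTLA-4), the antibodies to each other (anti-PD-1 + anti-CTLA-4, here the checkpoint pair), all 3 agents were given together (the triple combination), and APG-157 + anti-CTLA-4 was repeated in mice that received anti-CD8 as well (the CD8-depleted combination). APG-157 is a botanical drug that contains curcumin and was given in food, the PD-1 and CTLA-4 antibodies block immune checkpoints, and anti-CD8 removes CD8+ T cells. The paper describes the CD8 depletion as a separate experiment with its own control and APG-157 + anti-CTLA-4 mice. The treatment labels do not say which experiment a library came from, so experiment and depletion cannot be told apart. Whether replicates A and B are separate tumors is stated in neither labels nor methods, so each p-value measures only the spread between libraries, and a bulk library cannot separate fewer cells of a type from less RNA per cell. For APG-157 + anti-CTLA-4 the paper reports scarce tumor material, with a single small tumor for a Western blot. It does not say which tumors of that group were sequenced.

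Total counts lay between 43.9 and 72.1 (median 54.9) in units of 1e6, and levels are given as CPM, counts scaled to a TMM-scaled library size of 1e6. Those of APG-157 + anti-CTLA-4 were the closest pair of replicates, with a biological coefficient of variation of 4.22% against 20.5% to 68.1% in the other 9 groups, yet they differed beyond sampling noise (chi-square per degree of freedom 11.1). Cd8a, which encodes a chain of CD8, was at 0.121 to 0.377 CPM in the 4 anti-CD8 libraries and at 0.607 to 56.6 CPM in the other 16. Of the squamous markers, Krt8 and Krt18 had medians of 814 and 975 CPM, whereas Krt5 had a count in 4 libraries and a median of 0 and Krt14 a median of 0.0359 CPM, so the basal keratins of a squamous carcinoma were near absent. Some libraries stood apart. Replicate B of the CD8-depleted combination summed to 4481 CPM over 10 adipocyte markers, where the next library had 141 CPM, and held 216 CPM of Epcam, where the next had 0.607 CPM. Skeletal muscle fiber markers (19 genes) summed to 7224 CPM in replicate A of the triple combination, 5728 CPM in replicate A of APG-157 + anti-PD-1 and 2667 CPM in replicate B of anti-CTLA-4, against a median of 93.3 CPM over all libraries.

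Per length, the receptor side of the pathway was uneven. The coreceptor Gfra2 was the most abundant of the 12 ligand and receptor genes, with a median of 50.2 CPM per kb of exon, whereas the coreceptor that prefers GDNF, Gfra1, had a median of 0.15 CPM per kb and Ret 0.0368 CPM per kb. Ncam1 lay between them at 5.39 CPM per kb, and Gdnf itself at 2.36 CPM per kb. Among the relatives that are not members, Gfra4 had a median of 20.7 and the ligand gene Artn, for artemin, 6.57 CPM per kb. Gdf15, a distant relative that signals through GFRAL and RET, had a median of 0.0964 CPM per kb. Nrtn, for neurturin, the main ligand of GFRα2, had a median of 0.0703 CPM per kb, and 547 of its 626 counts came from replicate B of the CD8-depleted combination. The last 3 were at or near zero: Pspn, for persephin, and Gfral had 2 counts each over all libraries, and Gfra3 had 76, of which 48 came from that same replicate B.

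**Figure D1:**
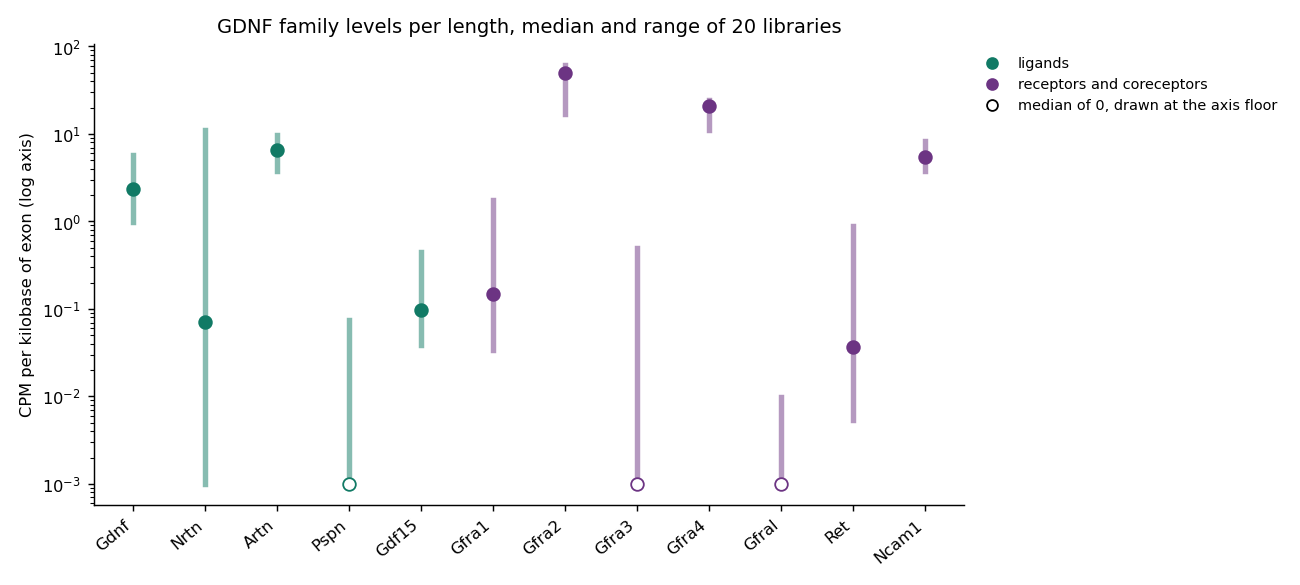
Level per exon length (CPM per kb, log axis) of the 12 GDNF family ligand and receptor genes, with points at the median of the 20 libraries and bars over their range, ligands in green and receptors in purple. Gfra2, at a median of 50.2 CPM per kb, lies far above Gfra1 at 0.15 and Ret at 0.0368, and open circles mark a median of 0, drawn at the axis floor.

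Gdnf was read in every library, from 173 to 1421 counts. Its level was 6.46 and 6.3 CPM in control replicates A and B, 8.78 and 8.25 CPM with APG-157, 9.84 and 8.53 CPM with anti-PD-1, and 10.8 and 7.82 CPM with anti-CTLA-4. Of the combinations, APG-157 + anti-PD-1 had 7.73 and 8.66 CPM, the checkpoint pair had 11.8 and 9.35 CPM, and the triple combination had 8.66 and 10.9 CPM. Together with anti-CD8 (8.86 and 8.5 CPM), these treated groups hold 14 libraries, all of which lay above both controls. Every one is set against the same control pair, and the share of all genes with such an order was not counted. The values that chose the gene stood outside this range: 20.9 and 19.9 CPM with APG-157 + anti-CTLA-4 (these were 1421 and 1090 counts, exact Poisson 95% intervals 1348 to 1497 and 1026 to 1157), against 6.48 and 3.62 CPM once anti-CD8 was added (448 and 173 counts, intervals 407 to 491 and 148 to 201). Such intervals cover counting error only.

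In order of the group means, APG-157 + anti-CTLA-4 came first at 20.4 ± 0.703 CPM (SD, n = 2, as for all group means). The next 7 groups, from the checkpoint pair at 10.6 ± 1.74 CPM down to APG-157 + anti-PD-1 at 8.2 ± 0.657 CPM, each overlapped the group below, down to the last of them. Control followed at 6.38 ± 0.115 CPM, below all 7, and the CD8-depleted combination was lowest at 5.05 ± 2.02 CPM but overlapped control. As a description, the mean with APG-157 + anti-CTLA-4 was 4.04 times that with CD8 depletion added, 3.15 times with replicate A of the depleted group alone and 5.63 times with its replicate B alone. It was 3.2 times control, 2.4 times APG-157 alone and 2.2 times anti-CTLA-4 alone, comparisons that share the same 2 APG-157 + anti-CTLA-4 libraries. Even the lower of these 2 libraries stood 1.69 times above the highest of the other 18. Replicate B of the depleted group, which holds the lowest Gdnf level, is the library with the adipocyte markers, and their part in the difference was not tested. Without it, the fitted log2 difference between the groups was 1.65 (SE 0.24), against 2.01 (SE 0.25) with it.

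**Figure D2:**
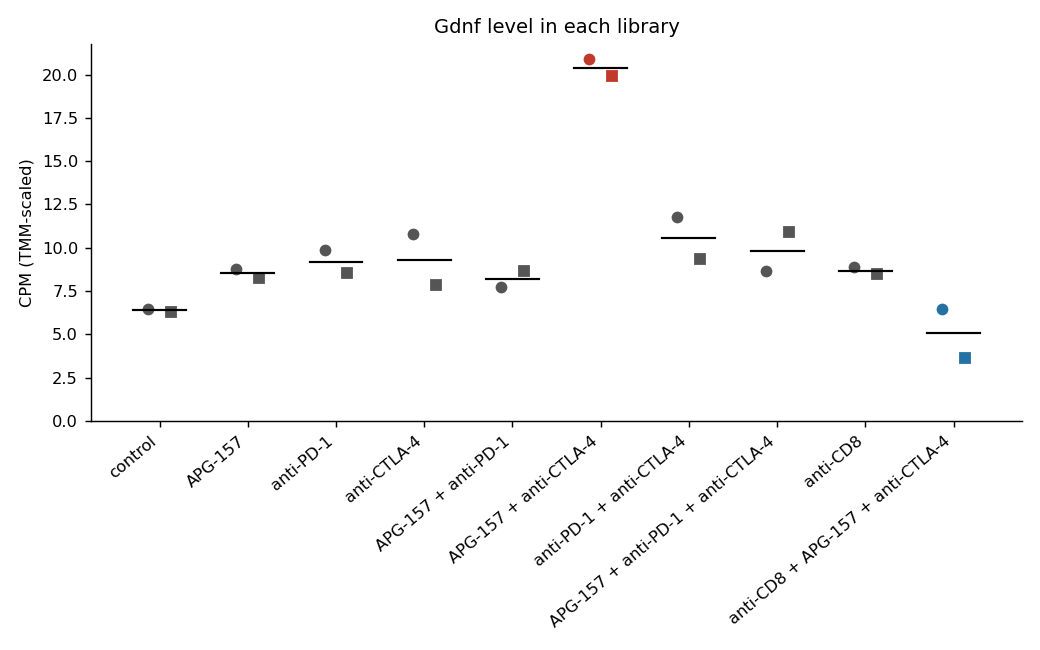
Gdnf level (CPM, linear axis from 0) of the 20 libraries, set out by treatment, with points for replicates A and B and a bar at the mean of the 2. The APG-157 + anti-CTLA-4 libraries sit at 20.9 and 19.9 CPM, above the other 18, which lie between 3.62 and 11.8 CPM.

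The groups that did not choose Gdnf were compared with control by edgeR's quasi-likelihood test, with Benjamini-Hochberg adjustment over 19567 genes. All of them share the same control pair. The fitted log2 fold change was 0.73 (SE 0.24, unadjusted p = 0.011, adjusted p = 0.73) for the checkpoint pair, 0.62 (SE 0.24, adjusted p = 0.94) for the triple combination and 0.54 (SE 0.24, adjusted p = 0.77) for anti-CTLA-4. None passed adjustment in edgeR. For anti-PD-1, APG-157, APG-157 + anti-PD-1 and anti-CD8, the log2 fold changes were 0.53, 0.42, 0.36 and 0.44, all with an SE of 0.24. The main effects average 3 pairs of groups that differ by a single agent and leave out APG-157 + anti-CTLA-4. For Gdnf, the main effect of anti-CTLA-4 was 0.33 (SE 0.14, edgeR adjusted p = 0.63), that of anti-PD-1 0.22 (SE 0.14) and that of APG-157 0.05 (SE 0.14). The fitted interaction between APG-157 and anti-CTLA-4, again without a test, was 0.72 (SE 0.34) on the log2 scale.

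Gfra1, which encodes the preferred coreceptor of GDNF, was low in most libraries, with a median of 0.821 CPM and 45 counts. Control had 0.395 and 0.68 CPM, APG-157 had 0.466 and 0.186 CPM, anti-CTLA-4 had 0.349 and 1.55 CPM, and anti-PD-1 had 1.98 and 1.13 CPM. Replicate A of APG-157 + anti-PD-1 had 9.69 CPM and replicate B 1.84 CPM, and the triple combination had 3.36 and 0.426 CPM. Where Gdnf was highest, Gfra1 was among the lowest, at 0.544 and 0.329 CPM with APG-157 + anti-CTLA-4. The remaining groups were the checkpoint pair with 0.401 and 0.9 CPM, anti-CD8 with 1.67 and 0.846 CPM, and the CD8-depleted combination with 1.03 and 0.796 CPM. Every group overlapped its neighbor in the order of means, which ran from 5.77 ± 5.55 CPM with APG-157 + anti-PD-1 down to 0.326 ± 0.198 CPM with APG-157. The top of that order rested on replicate A of APG-157 + anti-PD-1, a library rich in muscle markers. The log2 fold change of that group from control was 3.42 (SE 1.06, unadjusted p = 0.0065, edgeR adjusted p = 1.0), and without that replicate it was 1.78 (SE 1.07, edgeR unadjusted p = 0.12). The main effect of anti-PD-1 on Gfra1 was 1.71 (SE 0.58, unadjusted p = 0.011, edgeR adjusted p = 0.77), and 1.17 (SE 0.56) without the same replicate. With all 3 muscle-rich libraries left out, the difference from control with APG-157 + anti-PD-1 was 1.78 (SE 0.74). The main effect of anti-PD-1 was then 1.65 (SE 0.44). The libraries that remained still differed in muscle markers, which summed to 262 and 543 CPM with anti-PD-1, against 93.4 and 140 CPM in control. The sums were 191 and 84.1 CPM with the checkpoint pair, against 26.9 CPM in the anti-CTLA-4 library left. The order was reversed for APG-157 + anti-PD-1, whose remaining library had 44.8 CPM, against 93.1 and 52.3 CPM with APG-157. The part of muscle in this main effect was not tested.

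Gfra2, the coreceptor gene that neurturin favors, had the highest counts of the members, from 2858 to 14788. The coefficient of variation of its CPM over the libraries was 21.1%, close to the 21.9% of Ncam1. Control had 155 and 185 CPM, APG-157 had 211 and 191 CPM, anti-PD-1 had 192 and 157 CPM, anti-CTLA-4 had 194 and 155 CPM, and anti-CD8 had 176 and 180 CPM. Of the combinations, APG-157 + anti-PD-1 had 163 and 198 CPM, APG-157 + anti-CTLA-4 had 218 and 209 CPM, the checkpoint pair had 146 and 159 CPM, and the triple combination had 146 and 213 CPM. These 9 groups overlapped their neighbors in the order of means, from 213 ± 5.82 CPM with APG-157 + anti-CTLA-4 down to 153 ± 8.95 CPM with the checkpoint pair. Only the CD8-depleted combination, at 136 and 59.9 CPM, lay below all others, and how many genes set it apart so was not counted. Its log2 fold change from control was −0.79 (SE 0.29, unadjusted p = 0.018, edgeR adjusted p = 0.19), and −0.32 without the adipocyte-rich replicate B (edgeR unadjusted p = 0.18).

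Ret, the gene for the signaling kinase, was the least read member, with a median of 15 counts per library. Control had 2 and 11 counts (0.0359 and 0.214 CPM, with 95% intervals for the counts of 0.242 to 7.22 and 5.49 to 19.7), and APG-157 had 7 and 8 counts (0.125 and 0.135 CPM). Levels of 0.711 and 0.621 CPM with anti-PD-1 and of 0.585 and 0.756 CPM in the triple combination lay above both controls in both replicates. APG-157 + anti-CTLA-4, at 0.221 and 0.0913 CPM, overlapped control, as did the checkpoint pair at 0.165 and 0.277 CPM and anti-CD8 at 0.502 and 0.107 CPM. In CPM, the replicates differed most in 3 groups. APG-157 + anti-PD-1 had 3.81 and 0.162 CPM, anti-CTLA-4 had 0.185 and 0.977 CPM, and the CD8-depleted combination had 0.405 and 5.95 CPM. The last of these also lay above both controls in both replicates, and the share of all genes with such an order was not counted. The 2 highest Ret levels were thus in the library richest in adipocyte markers and in a library rich in muscle markers. Every group overlapped the next in the order of means.

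For Ret, the log2 fold change of the CD8-depleted combination from control was 4.67 (SE 1.55, unadjusted p = 0.01, edgeR adjusted p = 0.16), and 1.69 without replicate B of that group (edgeR unadjusted p = 0.27). DESeq2 on all libraries called this difference (4.72, adjusted p = 0.013). For APG-157 + anti-PD-1 it was 3.98 (SE 1.51, unadjusted p = 0.021, edgeR adjusted p = 1.0), and 0.40 without replicate A of that group (edgeR unadjusted p = 0.79). The main effect of anti-PD-1 on Ret was 1.65 (SE 0.81, edgeR adjusted p = 0.77), and 0.45 (SE 0.74) without replicate A of APG-157 + anti-PD-1.

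Ncam1, the adhesion molecule gene, was well read, from 1785 to 4275 counts. Control had 64.9 and 49.5 CPM, APG-157 had 45.1 and 72.1 CPM, anti-PD-1 had 54.5 and 52.8 CPM, and anti-CD8 had 46.1 and 51.4 CPM. APG-157 + anti-PD-1 had 42.6 and 47.2 CPM, the checkpoint pair had 62.7 and 40.6 CPM, the triple combination had 37.3 and 49.7 CPM, and the CD8-depleted combination had 52.2 and 40 CPM. The lowest levels were those of anti-CTLA-4, at 37.1 and 39.7 CPM, and below them APG-157 + anti-CTLA-4, at 34.6 and 32.6 CPM, which overlapped no other group. The APG-157 + anti-CTLA-4 libraries are the closest pair of replicates, with a biological coefficient of variation of 4.22%. How many genes set them apart in the same way was not counted. The group with the highest Gdnf also had the lowest Ncam1. The log2 fold change of APG-157 + anti-CTLA-4 from control was −0.77 (SE 0.24, unadjusted p = 0.0075, edgeR adjusted p = 0.32), and that of anti-CTLA-4 was −0.58 (SE 0.24, unadjusted p = 0.034, edgeR adjusted p = 0.77). An antisense gene overlaps exons of Gfra1 and another those of Ncam1, with 4 and 15 counts over all libraries, and whether the counting used strand is not given in the sources used here.

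**Figure D3:**
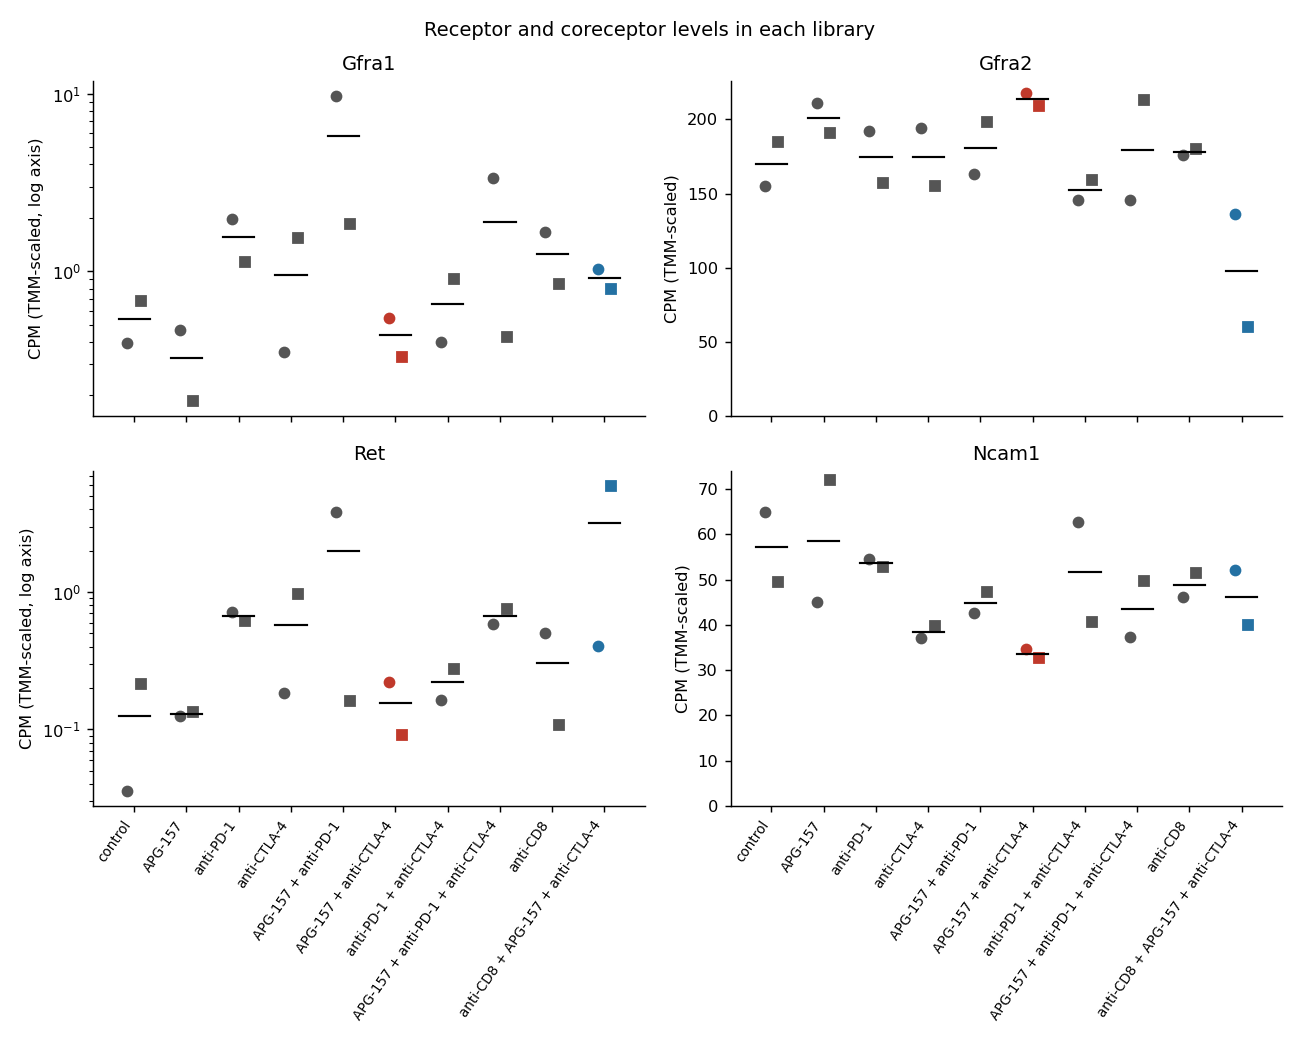
Levels (CPM) of Gfra1 and Ret (log axes) and of Gfra2 and Ncam1 (linear axes from 0) of the 20 libraries, set out by treatment, with points for replicates A and B and a bar at the group mean. Gfra1 at 9.69 CPM in replicate A of APG-157 + anti-PD-1 and Ret at 5.95 CPM in replicate B of the CD8-depleted combination stand apart from the replicate of the same group.

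Counted over all comparisons open to a test, 62 member values in 13 comparisons, edgeR called 0 at an adjusted p under 0.05. At an unadjusted p under 0.05 there were 11, and DESeq2 called 1, the Ret difference given above. The background was as low. At the adjusted threshold edgeR called 0.0204% of all genes for APG-157 + anti-CTLA-4 against control, 0.0102% for the CD8-depleted combination, 0.00511% each for the main effect of anti-PD-1 and the interaction, and 0% in the other 9 comparisons. At an unadjusted p under 0.05, 1 of the 4 members open to a test passed for APG-157 + anti-CTLA-4 (Ncam1), where 11.1% of all genes did, and 2 of 4 for the CD8-depleted combination (Gfra2, Ret), where 19.1% did and DESeq2 called 6.85% at an adjusted p under 0.05. Of all 5 members, 2 passed unadjusted for anti-CTLA-4 (Gdnf, Ncam1; 6.45% of all genes) and 2 for APG-157 + anti-PD-1 (Gfra1, Ret; 2.43%). For the checkpoint pair and for the triple combination 1 of 5 passed, Gdnf in both (6.04% and 4.48% of all genes), and so it did for the main effect of anti-CTLA-4 (7.72%). Gfra1 was the 1 of 5 for the main effect of anti-PD-1 (6.08%). No member passed unadjusted for APG-157, anti-PD-1 or anti-CD8 alone or for the main effect of APG-157, where 0.761%, 0.618%, 1.19% and 2.97% of all genes did. For the interaction between APG-157 and anti-CTLA-4 none of the 4 receptors passed, against 10.1% of all genes, with edgeR adjusted p between 0.77 and 0.98. With replicate A of the CD8-depleted combination left out, edgeR called 2 members in that group against control, Gfra2 and Ret, where it called 30.2% of the 21969 genes tested. That setting leaves the adipocyte-rich library alone in the group, and it is assumed to vary like the other groups.

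**Figure D4:**
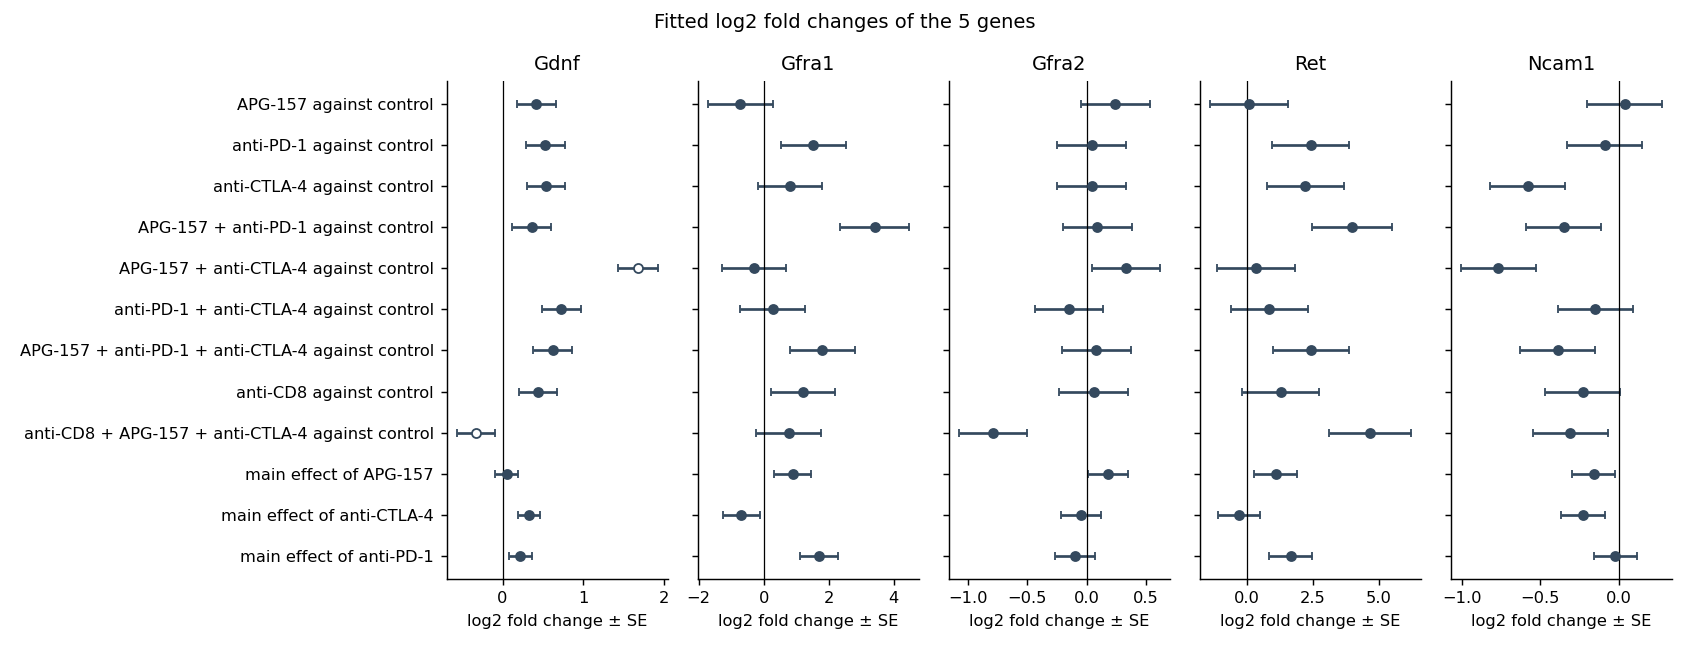
Fitted log2 fold change of the 5 members in each treated group against control and in the 3 main effects, each panel with its own linear axis and bars of 1 standard error. Filled circles were open to a test and open circles (Gdnf in the groups that chose it) are a description, and Ret for the CD8-depleted combination (4.67, SE 1.55) and for APG-157 + anti-PD-1 (3.98, SE 1.51) has the widest bars.

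Between the groups that chose Gdnf, the other members are set side by side with no test. The log2 difference of APG-157 + anti-CTLA-4 minus the depleted group was 1.12 (SE 0.29) for Gfra2, −0.46 (SE 0.24) for Ncam1, −1.06 (SE 0.99) for Gfra1 and −4.32 (SE 1.51) for Ret. Without replicate B of the depleted group these were 0.65, −0.63, −1.23 and −1.35. All 4 receptors kept the sign of the difference, and that of Ret was cut most. Over 70 tested genes of the wider pathway, the median log2 difference was 0.02, beside −0.09 over all genes, with 35 genes higher in APG-157 + anti-CTLA-4.

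The wider pathway was described with 7 lists of 79 genes, of which 70 passed the filter on low counts. In 13 comparisons edgeR called 0 of them at an adjusted p under 0.05. The main effects gave 0, 5 and 6 genes higher and 1, 5 and 2 lower at an unadjusted p under 0.05 for APG-157, anti-CTLA-4 and anti-PD-1, where 2.97%, 7.72% and 6.08% of all genes passed in either direction. DESeq2 called 2 genes at an adjusted p under 0.05, both for the main effect of anti-CTLA-4, where it called 0.756% of all genes. Against control, DESeq2 called 8 for APG-157 + anti-CTLA-4 (among them Bdnf, Dok2, Sdc3 and Src, which were higher, and Egr1, Robo2 and Spry1, which were lower; 1.91% of all genes) and 8 for the CD8-depleted combination (Ngfr, Nrtn, Ntrk2, Ret, Sort1 and Wnt11 higher, Egr1 and Nrg1 lower; 6.85% of all genes, the highest share of these comparisons). It called 2 for the checkpoint pair (Egr1 and Spry1 lower; 0.414% of all genes) and 1 for anti-CTLA-4 (Dok2 higher; 0.0971%). These genes were named after their values were seen where no list rule named them. The 6 genes called higher in the CD8-depleted combination all had their highest level in its adipocyte-rich replicate B. That library's part of their counts ran from 284 of 846 for Ret to 547 of 626 for Nrtn. The medians of the 70 genes were 0.06, −0.09 and 0.02 on the log2 scale, beside 0.00, 0.00 and −0.02 over all genes. Of the ligands, 4 of 5 were tested, and beside Gdnf the smallest p belonged to Gdf15 (main effect of anti-CTLA-4 0.85, SE 0.56) and Artn (main effect of anti-PD-1 −0.16, SE 0.16). Of the receptors, 5 of 7 were tested, and Gfra4 had a main effect of anti-PD-1 of −0.27 (SE 0.17). None of these had an unadjusted p under 0.05.

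Over all genes, DESeq2 called 148 for the main effect of anti-CTLA-4. The 2 of them on the pathway lists, Spry1 and Dok2, had been listed because their products act downstream of RET. Spry1 encodes Sprouty1, a feedback inhibitor that restrains RET signaling in the kidney. It stood at 39 and 43.8 CPM in control, at 28.4 and 23.9 CPM with anti-CTLA-4, at 19 and 21.4 CPM with the checkpoint pair, and at 13.5 and 13.2 CPM with APG-157 + anti-CTLA-4, the lowest of all libraries. Its main effect of anti-CTLA-4 was −0.73 (SE 0.15, unadjusted p = 0.00038, edgeR adjusted p = 0.27, DESeq2 adjusted p = 0.0022), and its log2 fold change from control with APG-157 + anti-CTLA-4 was −1.63 (SE 0.27, edgeR adjusted p = 0.079, DESeq2 adjusted p = 3.2e-06). With CD8 depletion added, Spry1 was at 36 and 23.4 CPM. It was at 30.6 and 27.9 CPM with anti-CD8 alone and at 23 and 28.3 CPM in the triple combination. An antisense gene with 799 counts over all libraries overlaps its exons. Dok2 encodes an adaptor that binds activated RET, is best known from blood cells, and stood at 21.3 and 25.3 CPM in control, 42.8 and 43.5 CPM with anti-CTLA-4, and 42.7 and 40.6 CPM when APG-157 was added to it. Dok2 was at 30 and 20.6 CPM in the CD8-depleted combination and at 30.4 and 31.1 CPM with anti-CD8 alone. Its main effect of anti-CTLA-4 was 0.56 (SE 0.11, unadjusted p = 0.00018, edgeR adjusted p = 0.2, DESeq2 adjusted p = 0.00043). With the 4 pairs that include APG-157 + anti-CTLA-4, edgeR called both genes (adjusted p = 0.017 for Spry1 and 0.036 for Dok2).

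Beside Spry1 and Dok2, no gene of the 7 lists passed adjustment in any main effect by edgeR or DESeq2. Of 18 tested RET adaptors, 4 were higher and 14 lower in the main effect of anti-CTLA-4, 1 each at an edgeR unadjusted p under 0.05. Their median was −0.09, beside 0.00 over all genes. Beside Dok2 the named ones were Shc1, the adaptor that links RET to MAPK (−0.25, SE 0.09), and for anti-PD-1 Grb2, which SHC recruits (0.17, SE 0.08). The 15 genes of ERK feedback and RET response had 13 higher and 2 lower fitted values in the main effect of APG-157. Of these, 0 had an edgeR unadjusted p under 0.05, and the median was 0.08, beside 0.00 over all genes. In the main effect of anti-PD-1, 4 were higher and 11 lower (median −0.04, beside −0.02 over all genes). There the immediate early gene Egr1 was at −0.36 (SE 0.11) and Phlda1 at −0.29 (SE 0.11). Among 8 binding partners of GDNF and NCAM, the smallest p-values were all for the main effect of anti-PD-1. They were those of Fyn, the kinase bound by NCAM (0.31, SE 0.09), St8sia4, which adds polysialic acid to NCAM (0.46, SE 0.15), and Sdc3, a syndecan that binds GDNF (0.43, SE 0.16). All 3 had an edgeR adjusted p of 0.77. Of 9 tested regulators of Gdnf in the kidney, 2 were higher and 7 lower in the main effect of anti-CTLA-4 (median −0.22, beside 0.00 over all genes). Robo2, a receptor that limits where Gdnf is expressed, had −0.61 (SE 0.19, edgeR adjusted p = 0.51) there, its ligand Slit2 had 0.37 (SE 0.14) for anti-PD-1, and the homeobox gene Hoxc11, with 66 counts over all libraries, had −2.15 (SE 1.10) for APG-157. Of the neurotrophins, Bdnf had a main effect of anti-CTLA-4 of 0.36 (SE 0.11, edgeR adjusted p = 0.5), and the receptor gene Ntrk3 had a main effect of APG-157 of −1.64 (SE 0.65).

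Over the 20 libraries, the members fell in no single pattern. As a description across libraries that share groups and scaling, Gdnf and Gfra2 had a Pearson r of 0.70 (Spearman rho 0.57). Gfra1 and Ret had 0.56 (rho 0.61), Gdnf and Gfra1 −0.22 (rho −0.23) and Gdnf and Ret −0.50 (rho −0.17), on log2 of CPM plus 0.5. The Gdnf values include the groups that chose it, and r without them is not given. Both Gdnf and Gfra2 were lowest in replicate B of the CD8-depleted combination and highest in replicate A of APG-157 + anti-CTLA-4. The 10 genes with the highest r with Gdnf, of 19566 compared, were Micall1 (0.92), Hmga2 (0.92), Msr1 (0.89), Agfg1 (0.89), Pcgf5 (0.88), Emilin2 (0.88), Myof (0.87), Gpr137b (0.87), Lcp1 (0.87) and Hmga1 (0.87). Msr1 is also on the macrophage marker list used here. Over the 16 libraries outside both groups that chose Gdnf, r for these genes was 0.81 for Micall1 and 0.39 to 0.69 for the other 9, so their likeness rested in large part on those groups. Hmga2, a chromatin architectural protein gene, ran from 181 to 743 CPM over the libraries, and Lcp1, the gene for an actin-bundling protein of white blood cells, from 273 to 791 CPM.

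For the receptors, 5 genes each were named by the same measure. Epha3, Itga11, Tnmd, Cxcl14 and Cpxm2 were most like Gfra1 (r from 0.93 to 0.90). Mpp6, Sms-ps, Ccdc88a, Pak1 and Cdca4 were most like Gfra2 (0.95 to 0.92), and Clip3, Bmp6, Nfatc4, Fam167a and AW551984 most like Ret (0.94 to 0.93). Cilp, 4833415N18Rik, Col10a1, Tmem119 and Adamts12 were most like Ncam1 (0.89 to 0.86). These names depend on the measure, since with Spearman rank only 2 of the 10 genes named for Gdnf and 1, 0, 1 and 3 of the 5 named for Gfra1, Gfra2, Ret and Ncam1 were again among the highest.

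Markers of cell types that could carry the receptors are set beside them. Over 20 libraries, Gfra1 had an r of 0.77 (rho 0.69) with the mean level of the 19 skeletal muscle fiber markers, and 0.60 without the 2 libraries farthest from the median of the markers. Between 16 and 19 of these markers had a count in each library. Ret had an r of 0.77 (rho 0.40) with the 10 adipocyte markers, and 0.13 without the 2 farthest, so that relation rested on these libraries, and 0.69 (rho 0.69) with the 12 fibroblast markers. Gfra2 had −0.74 (rho −0.83) with the 10 endothelial markers. Gdnf had −0.69 (rho −0.36) with the fibroblast markers, the r largest in size for Gdnf among the 11 marker lists. By rho the endothelial markers were largest in size (rho −0.56, r −0.66). These values include the groups that chose Gdnf, and r outside them is not given. The fibroblast markers summed to 3070 and 2929 CPM with APG-157 + anti-CTLA-4, the lowest of all libraries. Control had 5598 and 5007 CPM, and the CD8-depleted combination had 5060 and 5378 CPM. The endothelial markers were also lowest with APG-157 + anti-CTLA-4, at 140 and 141 CPM. They summed to 218 and 280 CPM in control and 260 and 319 CPM in the CD8-depleted combination. The part of these cell types in the member levels was not tested.

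Nerve markers were read at uneven levels. The 13 neuron markers summed to between 21 and 32.4 CPM, most of it Map2 (median 18.4 CPM) and Tubb3 (median 4.31 CPM), and the defining genes Th and Elavl4 had medians of 0, with 2 and 14 counts over all libraries. The 16 Schwann cell markers summed to between 169 and 256 CPM, most of it Pmp22 (median 157 CPM), which many cell types express, and Sox10, Foxd3 and Pmp2 had medians of 0. Others of that list had counts in all 20 libraries, among them Gap43 (median 14.4 CPM), Mbp (12.3 CPM), Egr2 (9.9 CPM) and Cdh19 (4.97 CPM). With APG-157 + anti-CTLA-4 the Schwann sums were 255 and 256 CPM and the neuron sums 31.6 and 31.6 CPM, where control had 221 and 218 CPM and 28.1 and 21.7 CPM. The mean log2 level of the Schwann markers, in which Pmp22 weighs no more than the rest, was 1.52 and 1.46 with APG-157 + anti-CTLA-4 and 1.51 and 1.40 in control, so these overlapped.

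**Figure D5:**
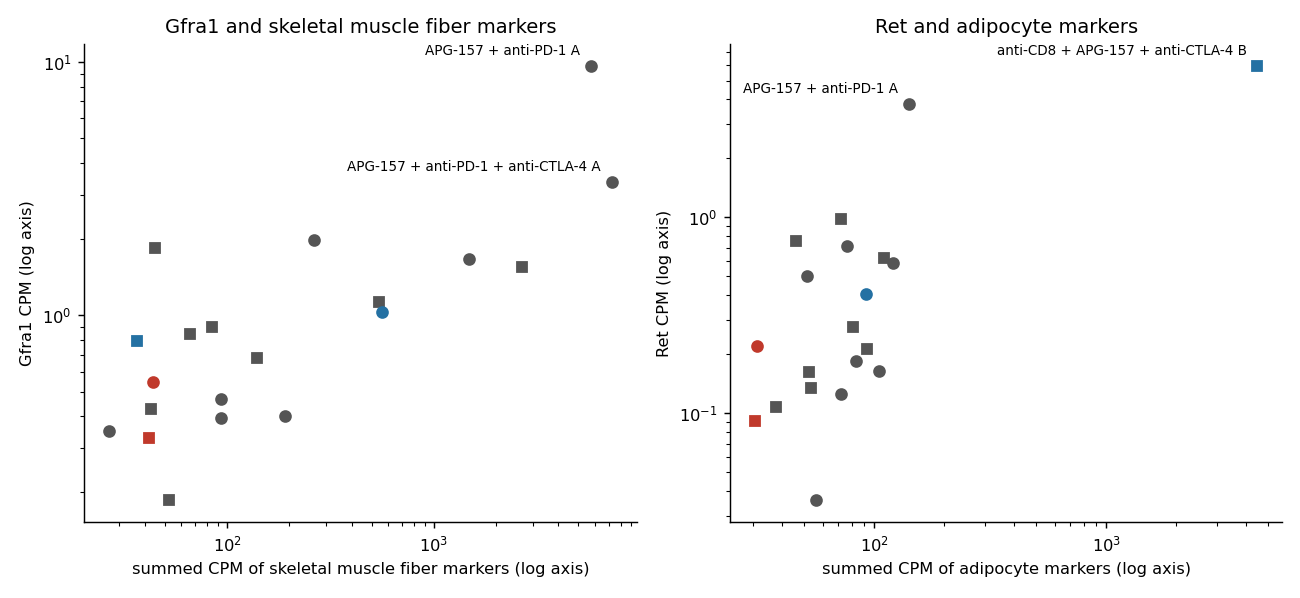
Gfra1 level against the summed skeletal muscle fiber markers and Ret level against the summed adipocyte markers (CPM, log axes), with a point for each of the 20 libraries (circles replicate A, squares replicate B; red APG-157 + anti-CTLA-4, blue the CD8-depleted combination). Ret at 5.95 CPM belongs to the library with 4481 CPM of adipocyte markers, and Gfra1 at 9.69 and 3.36 CPM to the libraries with 5728 and 7224 CPM of muscle markers.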

How the data were processed

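RNA of SCCVII tumors was sequenced as 20 libraries in 10 groups of 2, grouped by the treatment and replicate letter in the labels. The deposited gene table holds expected counts: the authors trimmed reads with Trimmomatic 0.39, estimated transcript abundance with Salmon (1.5.0 per the submitters' processing notes) against GENCODE vM27 on GRCm39 and summed the estimates to genes, without scaling for depth. Of these values 71.5% are exactly whole, and all were rounded. A second deposited table of log2 values was not used.

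The low-count filter was filterByExpr of edgeR 4.0.16 (in R 4.3.3; at least 10 counts, total at least 15), and 19567 genes passed it, all 5 members among them. After TMM scaling, 1 robust quasi-likelihood model with a mean per group was fitted to the whole set of 20 libraries, which leaves 10 residual degrees of freedom. The common biological coefficient of variation came to 38.7%. Calls were made at an adjusted p (Benjamini-Hochberg, all genes tested, two-sided) below 0.05. The contrasts were each treated group against control, the main effects, and the interaction. With 2 libraries a group, an exact permutation test cannot reach that threshold. CPM uses the TMM-scaled library size, correlations use log2(CPM + 0.5), and levels per kb use union exon lengths of GENCODE M21 (GRCm38), so no coordinates are given. The interval of a count is exact (Poisson, 95%) and covers counting error only.

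The members and gene lists were chosen with earlier results of these data known. From each pathway list the 3 genes with the smallest unadjusted p in the main effects are named, and for each member the 5 genes (10 for Gdnf) with the highest r over the libraries. A few genes that these rules or lists hold are not reported here. The pathway lists were GDNF family ligands, GDNF family receptors, binding partners with NCAM signaling, RET adaptors, ERK feedback and RET response, regulators of Gdnf in the kidney, and neurotrophins. Alternatives were RLE factors, dropping the low-count filter or asking for a mean of 1 CPM instead, DESeq2 1.42.0, the replicate letter as a block, each library left out in turn, summing the closest pair (APG-157 + anti-CTLA-4) into 1 sample, a log2 fold minimum of 2, all 4 pairs in the main effects, another pseudocount (0.1), Spearman rank, and, chosen after seeing the data, the 3 muscle-rich libraries left out and, for the genes most like Gdnf, the groups that chose it left out.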

Additional observations from a re-analysis of the deposited data

How the results depend on the processing

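No member was called by edgeR in a comparison with control under RLE factors, either filter, the replicate block, the summed APG-157 + anti-CTLA-4 libraries or without the 3 muscle-rich libraries (a setting chosen after seeing the data), and DESeq2 called 1 (Ret). Leaving out each of 20 libraries gave 0 to 2. Of pathway genes, edgeR called 1 against control without a low-count filter and 1 without the muscle-rich libraries (Spry1 in both), DESeq2 called 19, and leaving out a library gave 0 to 42, the highest without replicate A of the CD8-depleted combination. In the main effects, all 4 pairs gave 2 calls and DESeq2 gave 2 (Dok2 and Spry1 in both). The Gdnf difference between the groups that chose it was 2.01, and 1.65 to 2.51 with a library left out. By total count, Gdnf with APG-157 + anti-CTLA-4 was 3.11 times control and 3.94 times the depleted group, and by RLE 3.2 and 3.99 times.

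The replicate letters gave 45 correlations between groups, from −0.34 to 0.66, with 14 over 0.1, so the letters are not taken to pair the samples. With the replicate block, the count of member calls stayed at 0 in each set of comparisons and the Gdnf difference was 2.03. Of 464 alternative values in 28 member comparisons, 441 kept their direction and side of the threshold, 3 passed it and 20 changed sign, in 7 comparisons. With all 4 pairs, the main effect of anti-PD-1 was −0.10 for Gdnf and 0.08 for Ncam1. Without the muscle-rich libraries, the main effect of APG-157 was −0.35 for Gfra1 and −0.05 for Ret, that of anti-CTLA-4 was 0.03 for Gfra2 and 0.40 for Ret, and that of anti-PD-1 was 0.03 for Ncam1. With each library left out, the main effect of APG-157 ran from 0.00 to 0.12 for Gdnf and from −0.11 to 1.66 for Ret, that of anti-CTLA-4 from −0.15 to 0.04 for Gfra2 and from −0.86 to 0.91 for Ret, and that of anti-PD-1 from −0.12 to 0.12 for Ncam1. The cause was not tested.

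Over all genes, against control, edgeR called 4 with APG-157 + anti-CTLA-4, 2 in the CD8-depleted combination and 0 in the other 7 groups. DESeq2 called 373 and 1340 in the former groups, then 7 (APG-157), 2 (anti-PD-1), 6 (anti-CD8), 4 (APG-157 + anti-PD-1), 19 (anti-CTLA-4), 81 (checkpoint pair) and 19 (triple combination). By edgeR and DESeq2, the interaction had 1 and 100, and the main effects of APG-157, anti-CTLA-4 and anti-PD-1 had 0 and 2, 0 and 148, and 1 and 10. Without the muscle-rich libraries edgeR called 34 for APG-157 + anti-CTLA-4, 141 for the checkpoint pair and 31 for the main effect of APG-157, with all 4 pairs 49 for that of anti-CTLA-4, without a low-count filter 15 for APG-157 + anti-CTLA-4, and without replicate A of the CD8-depleted combination 6632 for that group. Depth was lowest for Ret, at a median of 15 counts, and Gfra1, at 45, but their widest replicate differences lay beyond the counting intervals.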

Other observations

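Replicate B of the CD8-depleted combination, the library with the lowest Gdnf and the highest Ret, held the highest level of 25 of the 79 pathway genes. Among genes that passed the low-count filter it did so for 19 of 70 (27.1%), beside 27.6% of all genes. Several of the 25 are developmental genes that were low in most other libraries. Of the pathway genes named next, only Wnt11 passed the filter. Pax2, a kidney regulator of Gdnf and Ret, had 464 of its 466 counts in that library, Sall1 494 of 524, and Wnt11, which RET signaling induces in the kidney, 420 of 693. Grb7 and Cblc, which encode an adaptor that binds RET and a ubiquitin ligase, had 1251 of 1286 and 553 of 562 counts there, and the neurotrophin gene Ntf3 had 61 of 74. Beside the adipocyte markers Cfd (1339 CPM) and Adipoq (352 CPM), the epithelial genes Cdh1 (222 CPM, next library 9.03 CPM) and Dsp (131 CPM, next library 0.882 CPM) stood out in the same library. Its macrophage markers summed to 1802 CPM, the lowest of the 20 libraries. The origin of these transcripts was not tested.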
